A study of Rattus norvegicus with 6 samples.

Results

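The genes described here are the carriers of organic anions, organic cations and drugs in rat kidney: the Slc22a, Slco and Slc47a solute carriers and the Abcc pumps, together with Abcb1a, Abcb1b, Abcb4 and Abcg2. They were taken by symbol from the table of gene counts, which gave 53 members among 31368 genes: 22 Slc22a, 15 Slco, 2 Slc47a, 10 Abcc and the 4 other ABC pumps. RNA came from renal tissue of wild-type (WT) male Sprague-Dawley rats, in which a model of chronic kidney disease (CKD) was set up at 8 weeks of age. There were 3 libraries labelled Sham and 3 labelled CKD. The sources used here do not give how the disease was produced or what the Sham procedure was. Nothing in the labels ties each library to an animal of its own, so every p-value reflects the spread between libraries, and that spread may be technical only.

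Proximal tubule cells move drugs, metabolites and retained waste solutes from blood to urine in a relay. Carriers on the blood side, chiefly the organic anion transporters encoded by Slc22a6 and Slc22a8 and the organic cation transporter encoded by Slc22a2, load the cell, and carriers and ATP-driven pumps on the urine side, such as those encoded by Slc47a1, Abcc2, Abcc4, Abcg2 and the P-glycoprotein genes, empty it. Some members work the other way, as does the urate reabsorber encoded by Slc22a12. In this account Slc22a and Slco are called uptake families, and Slc47a, the Abcb genes, Abcg2 and the Abcc genes are called efflux families, except Abcc8 and Abcc9, which encode regulatory subunits of potassium channels.

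Assigned counts per library ran from 15918035 to 17503644. Mitochondrial genes took 37.9% of Sham 2, 14.4% and 15.3% of Sham 1 and Sham 3, and 8.83% to 10.8% of the CKD libraries. All 11 proximal tubule markers looked up were detected, with a summed level of 30035, 7813 and 21601 CPM in Sham 1, 2 and 3 and 13100, 11148 and 17614 CPM in CKD 1, 2 and 3 (CPM, counts scaled to a common library size after correction for composition). In Sham 1 the markers Slc3a1 and Slc7a13 alone gave 7262 and 6766 CPM of that sum. The median log2 change of the 11 was 0.01. Markers of collecting duct principal cells summed to 382, 1589 and 470 CPM in Sham 1, 2 and 3 and 252 to 371 CPM in CKD. Those of intercalated cells summed to 299, 1729 and 519 CPM in Sham and 190 to 370 CPM in CKD. Of 5 hepatocyte markers, Serpina1, Ttr and Cyp3a2 had no count in any library, Alb stayed at or below 0.422 CPM and Apoa1 at or below 1.47 CPM. In whole tissue, fewer cells of a type and less RNA per cell cannot be told apart.

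Of the 53 carriers 40 passed the filter on low counts and were tested. By edgeR's quasi-likelihood test, 2 of the 40 were lower in CKD at an adjusted p under 0.05 (5%), and none was called higher. Of all 15371 tested genes 3.82% were called, 1.15% lower and 2.67% higher. The 2 that fell were Slco1a1, an organic anion transporting polypeptide of the straight proximal tubule, and Slc22a22, a prostaglandin-transporting member of the Slc22 family. At an unadjusted p under 0.05 there were 14 of 40, or 35.0%, against 23.8% of all tested genes. DESeq2 fitted 49 carriers and 21904 genes in all, including genes to which it gave no adjusted p, such as Slc22a7. It called 2 carriers higher (Abcb1b and Abcb4) and 8 lower (Slco1a1, Slco1a3, Slc22a2, Slc22a12, Slc22a22, Abcb1a, Abcc6 and Abcc8). Of all 21904 fitted genes it called 6.22% higher and 4.99% lower. In edgeR no carrier passed in either direction without Sham 2, Sham 3, CKD 1 or CKD 2, and of all genes only 2, 7, 0 and 0 did. In those fits 10 to 18 carriers (24.4% to 45%) had an unadjusted p under 0.05, against 14.6% to 27% of all genes. Without Sham 1 edgeR called 1 of 41 carriers higher and 3 lower, against 4.96% and 5.8% of all genes (1711 genes called in all). Without CKD 3 it called 2 of 40 carriers lower, against 0.462% of all genes (413 called in either direction).

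By sign, most uptake genes were lower and the efflux genes were divided. Of 26 tested uptake genes 21 had a negative log2 change (CKD minus Sham) and 5 a positive one, with a median of -0.56. For the 12 tested efflux genes 5 were negative and 7 positive, with a median of 0.03. Over all genes tested the median was -0.01, and 50.5% were negative. Between libraries of a group the median log2 level of the uptake genes had an SD of 0.483. The uptake change was thus close to that spread. For the efflux genes this SD was 0.258. The difference between uptake and efflux was not tested. With library totals in place of composition scaling the median of all genes moved to 0.41, those of uptake and efflux to -0.15 and 0.46, and 17 uptake genes stayed negative, and relative to all genes the uptake median stood at -0.565 in place of -0.556. Without Sham 1 the uptake median was -0.35. The efflux median changed sign with RLE size factors (-0.02), where 5 of 12 efflux genes were positive.

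The share of carriers with groups that did not overlap was near that of all tested genes. In 7 of the 40 tested carriers every CKD library stood above every Sham library, against 18.8% of all tested genes. In 6 (15%) every CKD library stood below, against 12.4%. The 6 below were Slco1a1, Slc22a22, Slc22a12, Slc22a2, Abcb1a and Abcc6, and the 7 above were Abcb1b, Abcb4, Abcc3, Abcc9, Abcc10, Slco2b1 and Slco3a1. Thus 4 of the 26 uptake genes and 2 of the 12 efflux genes lay below without overlap, and 2 uptake and 4 efflux genes above.

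**Figure D1:**
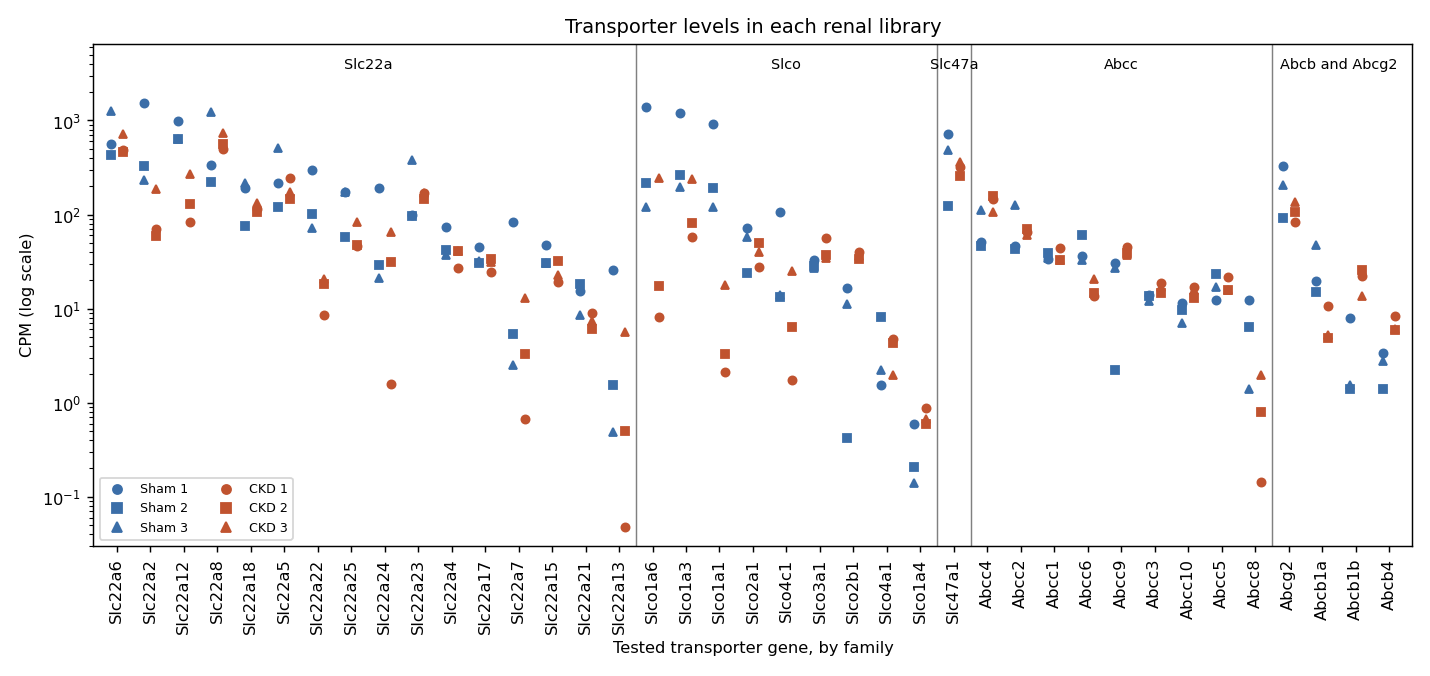
Level of 39 tested carriers in each library, in CPM on a log axis, grouped by family and ordered within it by mean level per length; blue symbols are Sham and orange symbols CKD, with circles, squares and triangles for libraries 1, 2 and 3. The blue circles of Sham 1 stand far above the other libraries for several Slc22a and Slco genes, such as Slc22a2 at 1530.4 CPM and Slco1a6 at 1403 CPM.

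**Figure D2:**
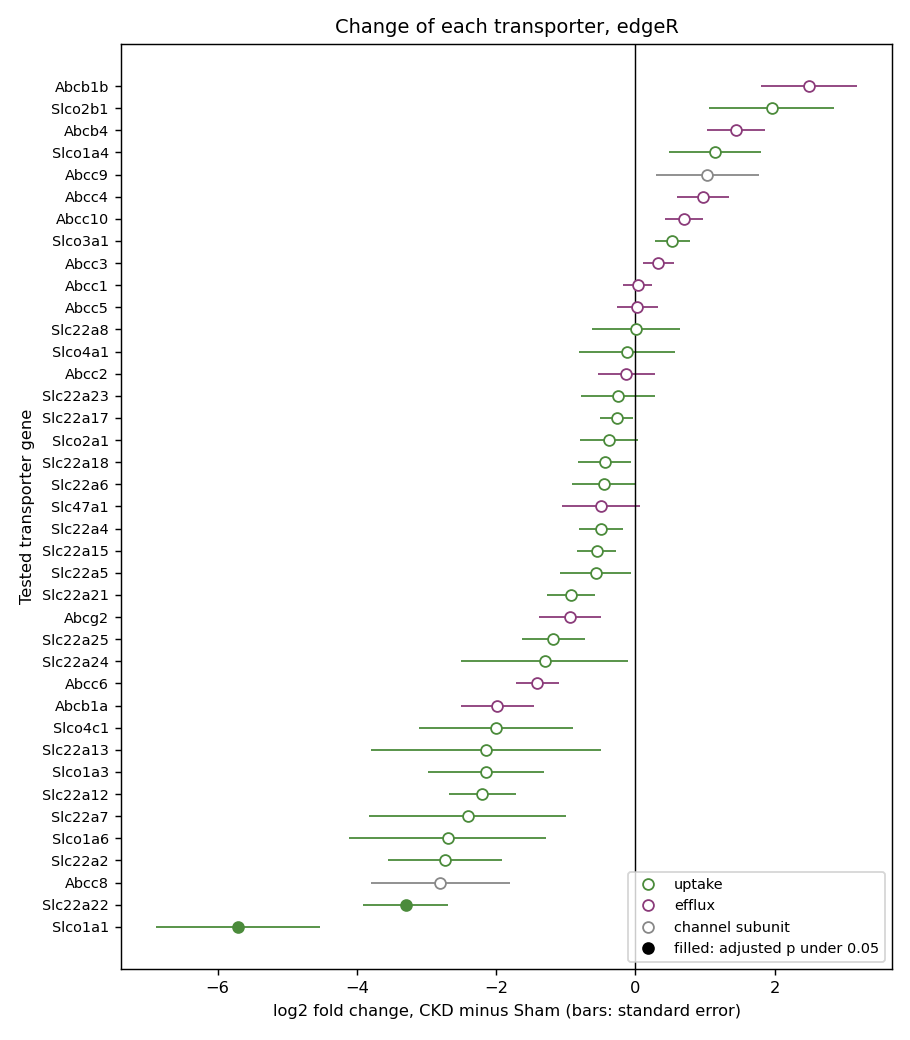
Log2 change of 39 tested carriers, CKD minus Sham, with bars of 1 standard error; green marks uptake, purple efflux and grey channel subunits, and filled symbols have an adjusted p under 0.05. Only Slco1a1 at -5.70 and Slc22a22 at -3.30 are filled.

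The organic anion transporting polypeptides (Slco genes) carry bile salts, steroid conjugates, thyroid hormones and many drugs across membranes. Slco1a1 stood at 908, 194 and 122 CPM in Sham 1, 2 and 3 and at 2.12, 3.33 and 18.0 CPM in CKD 1, 2 and 3. Every CKD library lay below every Sham library, although Sham 1 alone was 5.76 times the mean of the other Sham libraries. It fell from 408 ± 435 to 7.83 ± 8.86 CPM (mean ± SD, n = 3 per group), a log2 change of -5.70 ± 1.18 (SE; edgeR adjusted p = 0.047). The change was -4.37 without Sham 1 and -7.22 without CKD 3. It lost its call without Sham 2, Sham 3, CKD 1 or CKD 2 (edgeR adjusted p = 0.0657, 0.108, 0.171 and 0.188) and with no filter on low counts (0.0665). In the deposited table Slco1a1 (ENSRNOG00000036984) lies on chromosome 4 from 174876593 to 174950873. Rnor_6.0 is the build in the submitters' processing notes, but a chromosome 1 gene ends as far out as 260398790, and which build the table follows is uncertain.

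For its neighbours on chromosome 4 the log2 changes over all libraries were smaller in size, and the difference from Slco1a1 was not tested. Slco1a3, which encodes the kidney carriers known as OAT-K1 and OAT-K2, stood at 1210.3, 263 and 197 CPM in Sham 1, 2 and 3 and at 57.0, 81.2 and 238 CPM in CKD 1, 2 and 3. CKD 3 lay within the Sham range, and the log2 change of -2.15 ± 0.83 did not pass (edgeR adjusted p = 0.172). Slco1a6, another kidney member of the cluster, stood at 1403, 214 and 119.7 CPM in Sham and at 8.20, 17.54 and 242 CPM in CKD, so that CKD 3 exceeded both Sham 2 and Sham 3. Its log2 change of -2.70 ± 1.41 did not pass either (edgeR adjusted p = 0.289) and was -0.94 without Sham 1 and -5.49 without CKD 3.

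Within each library the Slco1a1 counts could be set against those of Slco1a3, a comparison chosen after the values were seen. The ratio was 0.751, 0.737 and 0.619 in Sham 1, 2 and 3 and 0.0372, 0.041 and 0.0756 in CKD 1, 2 and 3. The Sham ratios were close together although Sham 1 was 5.76 and 5.27 times the mean of the other Sham libraries for Slco1a1 and Slco1a3, and all CKD ratios were lower. Slco1a1 made up 23.3% to 26.5% of the summed Slco level per kilobase in Sham and 1.38% to 2.92% in CKD. The share of Slco1a3 was 26.1% to 31.0% in Sham and 30.6% to 34.3% in CKD. For Slco1a6 the ratio to Slco1a3 was 1.16, 0.816 and 0.609 in Sham 1, 2 and 3. In CKD 1, 2 and 3 that ratio was 0.144, 0.216 and 1.01, so the groups overlapped through CKD 3. The share of Slco1a6 was 28.1% to 45.2% in Sham and 6.56%, 11.1% and 48.1% in CKD 1, 2 and 3.

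Slco1a4, the brain and liver member of the cluster, was nearly silent at 0.141 to 0.600 CPM in Sham and 0.596 to 0.868 CPM in CKD. Its gene body in the deposited table spans Slco1a1, Slco1a3 and Slco1a6 on the same strand, so counts within this cluster are uncertain, as reads can also be shared between its close relatives. The promoters of Slco1a1 and Slco1a4 were the most alike of the 946 pairs of carrier promoters compared, identical at 66.4% of aligned positions, and are shown because the 2 genes differed so widely here, with 18586 counts of Slco1a1 and 57 of Slco1a4 over the 6 libraries. The windows are the 250 bases before the start of each gene in RefSeq (build GRCr8, minus strand), at chr4:176681993-176682242 and chr4:176495847-176496096, written 5′ to 3′ with the longest run common to both, 11 bases, in capitals:
Slco1a1: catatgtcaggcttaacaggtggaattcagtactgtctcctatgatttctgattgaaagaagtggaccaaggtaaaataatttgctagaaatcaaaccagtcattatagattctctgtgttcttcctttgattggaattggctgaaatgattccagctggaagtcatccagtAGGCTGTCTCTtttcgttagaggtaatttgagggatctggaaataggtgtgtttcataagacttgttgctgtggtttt
Slco1a4: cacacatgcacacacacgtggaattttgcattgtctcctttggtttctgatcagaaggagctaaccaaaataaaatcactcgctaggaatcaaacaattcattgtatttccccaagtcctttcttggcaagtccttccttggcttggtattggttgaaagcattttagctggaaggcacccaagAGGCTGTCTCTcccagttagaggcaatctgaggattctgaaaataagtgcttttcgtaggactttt
The shared run begins 78 bases before the start of Slco1a1 and 66 bases before that of Slco1a4. In the deposited table the minus-strand Slco1a4 starts at 175254573, above the Slco1a6 start at 175117263. Its RefSeq window lies instead at lower coordinates than that of Slco1a1. The Slco1a4 window may therefore not belong to the gene model that was counted. Neither window held a match to the HNF4 or C/EBP motifs described below, which says only that those letters are not in these windows.

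Among the remaining Slco genes, Slco4c1, a blood-side carrier of digoxin and thyroid hormone, stood at 105, 13.1 and 14.0 CPM in Sham 1, 2 and 3 and at 1.74, 6.36 and 25 CPM in CKD 1, 2 and 3. The groups overlapped, with a log2 change of -2.0 ± 1.10 (edgeR adjusted p = 0.313) that was -0.33 without Sham 1. Slco2a1, the prostaglandin transporter, had a log2 change of -0.38 ± 0.41 and Slco4a1, a thyroid hormone carrier, one of -0.12 ± 0.69 (edgeR adjusted p = 0.619 and 0.937). With library totals alone the value for Slco2a1 was 0.03.

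Slco2b1 and Slco3a1, carriers expressed in many tissues, had the opposite sign. Slco2b1 stood at 16.7, 0.419 and 11.2 CPM in Sham 1, 2 and 3 and at 40.2, 34.0 and 35.9 CPM in CKD 1, 2 and 3. All CKD libraries were higher and lay close together, but Sham 2 was far below the other Sham libraries, and the log2 change of 1.96 ± 0.89 did not pass (edgeR adjusted p = 0.232; 1.35 without Sham 2). Slco3a1 stood at 33.1, 28.3 and 27.2 CPM in Sham and 56.6, 36.7 and 34.6 CPM in CKD (log2 change 0.53 ± 0.25, edgeR adjusted p = 0.238). Both groups were tight for Slco3a1 except for CKD 1. The summed level of 7 macrophage markers was 133, 49.4 and 90.4 CPM in Sham 1, 2 and 3 and 454, 375 and 218 CPM in CKD 1, 2 and 3, and its part in these values was not tested.

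The Slc22a family holds the classical organic anion transporters. Slc22a6, which encodes OAT1, stood at 567, 435 and 1271 CPM in Sham 1, 2 and 3 and at 486, 462 and 712 CPM in CKD 1, 2 and 3. Slc22a8, which encodes OAT3, stood at 336, 219 and 1236.5 CPM in Sham and at 495, 565 and 744 CPM in CKD. In both genes the CKD libraries fell inside the Sham range, and Sham 3 was the highest of all 6. Their log2 changes were -0.45 ± 0.46 and 0.01 ± 0.63 (edgeR adjusted p = 0.594 and 0.994), and without Sham 3 they were 0.08 and 1.05. The Slc22a8 to Slc22a6 ratio of counts was 0.594, 0.504 and 0.973 in Sham and 1.02, 1.22 and 1.05 in CKD, so that every CKD library had the higher ratio, with a narrow gap to Sham 3.

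Slc22a22 stood at 295, 102 and 71.5 CPM in Sham 1, 2 and 3 and at 8.59, 18.2 and 20.8 CPM in CKD 1, 2 and 3. The groups did not overlap. It fell from 156 ± 121 to 15.87 ± 6.45 CPM, 9.84-fold by the means, with a log2 change of -3.30 ± 0.61 (edgeR adjusted p = 0.0399). The change was -2.5 without Sham 1, where it still passed (edgeR adjusted p = 0.0255), and it lost its call when any other single library was left out and in limma-voom (adjusted p = 0.0509). The gene (ENSRNOG00000004958) lies on chromosome 7 from 88720427 to 88750111 in the table's coordinates.

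The promoter window of Slc22a22 held letters close to the motifs of HNF4, a nuclear factor of proximal tubule cells, and of C/EBP. Motifs were searched on both strands in the 250 bases before the start of 44 carriers found in the RefSeq promoter table (GRCr8), allowing 1 mismatch to CAAAGTCCA for HNF4 and 1 to TTGCGCAA for C/EBP. HNF4 was matched in 18.2% of carrier windows and 7.33% of all 33469 windows, and C/EBP in 11.4% and 4.74%. Exact searches for STAT (TTCNNNGAA) and for the antioxidant response element (TGACNNNGC) matched 9.09% of carrier windows each, against 7.67% and 10.1% of all windows. The Slc22a22 window (chr7:90639696-90639945, minus strand) is shown with its matches in capitals, in reading order C/EBP and HNF4:
Slc22a22: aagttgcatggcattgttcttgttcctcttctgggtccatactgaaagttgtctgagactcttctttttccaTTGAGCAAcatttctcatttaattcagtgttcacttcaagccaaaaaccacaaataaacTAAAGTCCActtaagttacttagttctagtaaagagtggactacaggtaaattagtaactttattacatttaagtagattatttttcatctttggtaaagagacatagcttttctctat
The HNF4 letters lie 119 to 111 bases before the start. A match is a description of letters and not a shown binding site.

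Slc22a12, which encodes the urate transporter URAT1, stood at 977, 628 and 639 CPM in Sham 1, 2 and 3 and at 84.3, 131 and 273 CPM in CKD 1, 2 and 3. The groups did not overlap, the mean was 4.60-fold lower in CKD, and Sham 1 exceeded the others by only 1.54 times. Its log2 change of -2.20 ± 0.48 was just outside the threshold (edgeR adjusted p = 0.0514) and passed in DESeq2 (adjusted p = 6.6e-05). Against Slc22a6 in the same library, the Slc22a12 count ratio was 1.72, 1.45 and 0.503 in Sham and 0.174, 0.282 and 0.383 in CKD.

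Several other anion carriers of the family rested on Sham 1. Slc22a7, which encodes OAT2, stood at 82.8, 5.31 and 2.53 CPM in Sham 1, 2 and 3 and at 0.675, 3.33 and 13.1 CPM in CKD 1, 2 and 3. Slc22a13, which encodes the urate and nicotinate exchanger OAT10, stood at 25.5, 1.54 and 0.493 CPM in Sham and at 0.0482, 0.497 and 5.69 CPM in CKD. Slc22a24, a carrier of steroid conjugates, stood at 191, 29.1 and 21.0 CPM in Sham and at 1.59, 31.6 and 64.6 CPM in CKD. In all 3 genes CKD 3 exceeded Sham 2 and Sham 3, and CKD 1 was the lowest library. Their log2 changes of -2.41, -2.15 and -1.30 (edgeR adjusted p = 0.342, 0.468 and 0.549) turned to 0.49, 0.99 and 0.34 without Sham 1. Slc22a25, an anion carrier near Slc22a8 on chromosome 1, had a log2 change of -1.18 ± 0.45 (edgeR adjusted p = 0.168) that was negative whichever library was left out.

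For the organic cations, Slc22a2 encodes OCT2, the blood-side carrier of creatinine and metformin. It stood at 1530.4, 332 and 235 CPM in Sham 1, 2 and 3 and at 71.0, 59.0 and 186 CPM in CKD 1, 2 and 3. All CKD libraries were lower, but CKD 3 came near Sham 3. The log2 change of -2.73 ± 0.82 did not pass (edgeR adjusted p = 0.0974), was -1.47 without Sham 1 and passed in DESeq2 (adjusted p = 0.00177).

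Slc47a1 encodes MATE1, the urine-side exchanger that passes organic cations into urine. It stood at 717, 124 and 485 CPM in Sham 1, 2 and 3 and at 321, 258 and 362 CPM in CKD 1, 2 and 3. The CKD libraries lay within the Sham range, with a log2 change of -0.49 ± 0.57 (edgeR adjusted p = 0.639) that was 0.01 without Sham 1. The second exchanger gene, Slc47a2, and Slc22a3, which encodes OCT3, were too low to test, at most 0.482 and 1.12 CPM in any library.

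The carnitine and zwitterion carriers did not pass the test. Slc22a5, which encodes the carnitine transporter OCTN2, stood at 217, 119 and 506 CPM in Sham 1, 2 and 3 and at 247, 147 and 173 CPM in CKD 1, 2 and 3 (log2 change -0.57 ± 0.51, edgeR adjusted p = 0.537; 0.10 without Sham 3). Slc22a4, which encodes the ergothioneine transporter OCTN1, had a log2 change of -0.50 ± 0.31 (edgeR adjusted p = 0.372). Slc22a21, a close relative of both on chromosome 10, had one of -0.93 ± 0.35 (edgeR adjusted p = 0.161). The remaining tested family members, Slc22a15, Slc22a17, Slc22a18 and Slc22a23, ran from -0.56 to -0.25 with no adjusted p under 0.273. Of all 17 tested Slc22a genes, 15 had a negative fold change.

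Sham 1 stood apart from the other Sham libraries in a group of these carriers. In 12 of 40 tested carriers (30%) Sham 1 was more than 3 times the mean of Sham 2 and Sham 3, against 4.93% of all tested genes. These were 10 of the 26 uptake genes, 1 of the 12 efflux genes (Abcb1b) and the channel subunit gene Abcc8. Sham 1 was the highest of all 6 libraries for 15 of 26 uptake genes (57.7%) and 2 of 12 efflux genes (16.7%), where it was the highest for 23.2% of all tested genes. This pattern was looked for after the values were seen.

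Slc7a13, an amino acid transporter that marks the straight end segment of the proximal tubule, had the same order at the extremes. It stood at 6766, 681 and 409 CPM in Sham 1, 2 and 3 and at 8.83, 50.2 and 618 CPM in CKD 1, 2 and 3, so that Sham 1 was highest and CKD 1 lowest, as for Slco1a1, Slco1a3, Slco1a6, Slc22a7 and Slc22a13 among others. The order was not particular to this segment. Thick ascending limb markers summed to 7818, 3424.5 and 1885 CPM in Sham and 1235, 2549 and 3038 CPM in CKD. Of that list Umod and Slc12a1 had both extremes, and Cldn16 and Kcnj1 did not. Of the other proximal tubule markers only Slc3a1 and Miox had both. By contrast Slc5a2, the glucose carrier of the early proximal tubule, stood at 181, 134 and 541 CPM in Sham and 390, 397 and 351 CPM in CKD, with Sham 3 highest as for Slc22a6 and Slc22a8. The Slco1a6 to Slc7a13 ratio of counts was 0.207, 0.315 and 0.293 in Sham and 0.929, 0.349 and 0.392 in CKD. Every CKD library had the higher ratio, with a narrow gap between Sham 2 and CKD 2, although the log2 change of Slco1a6 was negative. The Slco1a1 to Slc7a13 ratio was 0.134, 0.284 and 0.298 in Sham and 0.240, 0.0663 and 0.0292 in CKD, and these overlapped through CKD 1. The part of segment content in the carrier values was not tested.

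**Figure D3:**
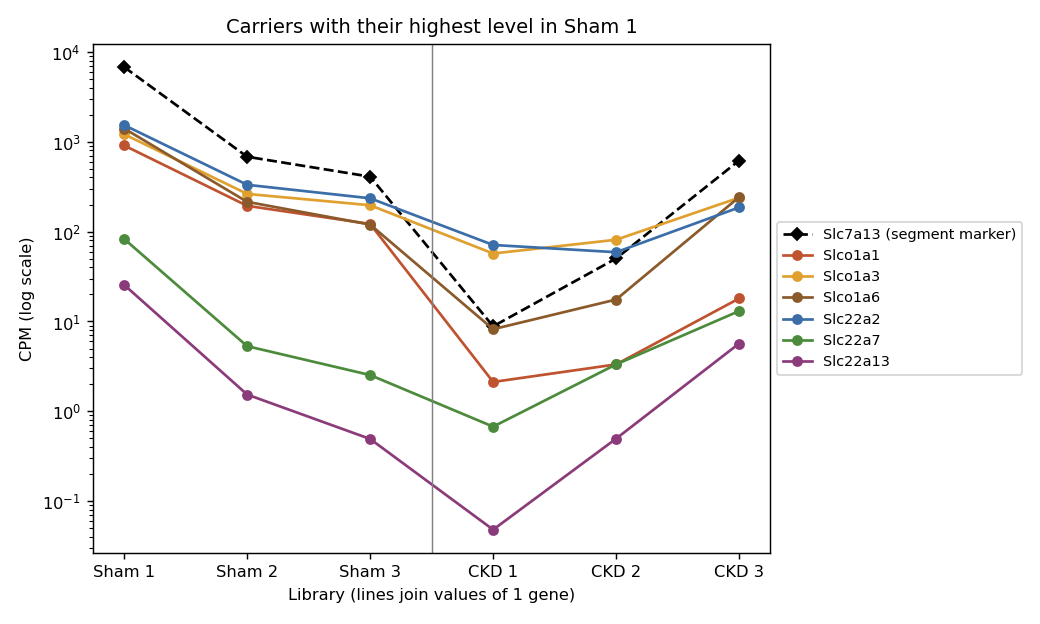
Levels of 6 carriers and of the segment marker Slc7a13 (dashed) in the 6 libraries, in CPM on a log axis; lines join the values of 1 gene and the order of libraries within a group has no meaning. The carriers drawn were picked for having their highest level in Sham 1, which held for 15 of 26 tested uptake genes, so that shared peak is no result. Slco1a1 at 18.0 CPM in CKD 3 stays below its Sham values while Slco1a6 at 242 CPM does not.

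The P-glycoprotein genes encode pumps that expel many drugs, and the rat has a pair, Abcb1a and Abcb1b. Abcb1a stood at 19.7, 15 and 48.0 CPM in Sham 1, 2 and 3 and at 10.8, 4.92 and 5.22 CPM in CKD 1, 2 and 3. Abcb1b stood at 8.00, 1.40 and 1.55 CPM in Sham and at 22.4, 26.0 and 13.6 CPM in CKD. In both genes the groups did not overlap, and the signs were opposite. The log2 changes of -1.98 ± 0.52 and 2.5 ± 0.69 did not pass in edgeR (adjusted p = 0.0747 and 0.0827) and passed in DESeq2 (adjusted p = 0.00254 and 0.00395). Without Sham 1 the value for Abcb1b was 3.76 (edgeR adjusted p = 0.013), and without Sham 3 that of Abcb1a was -1.39.

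Within each library the pair could be set against each other. The ratio of Abcb1b to Abcb1a counts was 0.405, 0.093 and 0.0323 in Sham 1, 2 and 3 and 2.08, 5.29 and 2.61 in CKD 1, 2 and 3. Every Sham library thus had more Abcb1a and every CKD library more Abcb1b. This ratio was chosen after the values were seen. In the deposited table Abcb1a (chromosome 4, 25158362 to 25442709) spans all of Abcb1b (25242798 to 25325199) on the same strand and overlaps Abcb4, and the coding sequences are close relatives, so how reads were divided between them is uncertain.

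The promoters of this pair are shown because the fold changes of the 2 genes had opposite signs. Both windows held letters close to the C/EBP motif, in capitals, at chr4:26397649-26397898 for Abcb1a and chr4:26280030-26280279 for Abcb1b (GRCr8, minus strand):
Abcb1a: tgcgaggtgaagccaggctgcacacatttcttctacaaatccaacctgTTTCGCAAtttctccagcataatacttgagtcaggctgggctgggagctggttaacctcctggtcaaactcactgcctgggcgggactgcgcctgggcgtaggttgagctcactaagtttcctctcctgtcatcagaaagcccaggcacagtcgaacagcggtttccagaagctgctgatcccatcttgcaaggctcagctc
Abcb1b: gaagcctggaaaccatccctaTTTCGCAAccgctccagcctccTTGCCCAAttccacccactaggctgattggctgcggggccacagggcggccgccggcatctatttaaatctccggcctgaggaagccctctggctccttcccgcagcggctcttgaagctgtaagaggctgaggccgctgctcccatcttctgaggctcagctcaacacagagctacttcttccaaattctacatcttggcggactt
Abcb1a has 1 match, from 202 bases before its start, and Abcb1b has matches from 229 and from 207 bases before its start. The first match is the same run of letters in both.

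**Figure D4:**
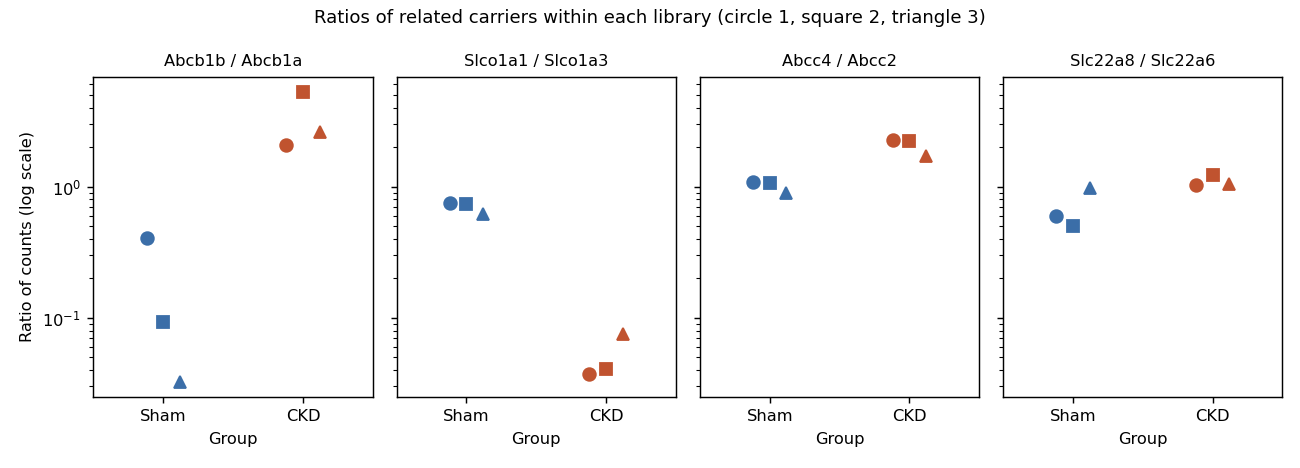
Ratio of counts of 4 pairs of related carriers, chosen after their values were seen, in each library on a shared log axis; blue is Sham, orange is CKD, and circles, squares and triangles are libraries 1, 2 and 3. The Abcb1b to Abcb1a ratio is at most 0.405 in Sham and at least 2.08 in CKD. The Slco1a1 to Slco1a3 ratio is at least 0.619 in Sham and at most 0.0756 in CKD. Among carrier pairs computed but not drawn, Slc22a12 to Slc22a6 did not overlap between groups. Those of Slco1a6 to Slco1a3 and Slc22a22 to Slc22a2 overlapped.

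Abcb4, the phospholipid exporter best known from bile, stood at 3.33, 1.40 and 2.75 CPM in Sham 1, 2 and 3 and at 8.39, 5.86 and 6.15 CPM in CKD 1, 2 and 3. The groups did not overlap (log2 change 1.45 ± 0.42), but it did not pass (edgeR adjusted p = 0.0912). Abcg2, the breast cancer resistance protein, which exports urate and drugs at the brush border, stood at 327, 91.2 and 205 CPM in Sham and at 83.8, 108 and 135 CPM in CKD. Those groups overlapped through Sham 2 (log2 change -0.94 ± 0.45, edgeR adjusted p = 0.249; -0.48 without Sham 1). By level per length over the 6 libraries Slc47a1 and Abcg2 were the most abundant efflux genes, at 80.7 and 72.8 CPM per kilobase, against 21.0 for Abcc4 and 11.2 for Abcc2.

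The Abcc genes encode the multidrug resistance-associated proteins. Abcc4, an exporter of anions and cyclic nucleotides on the urine side, stood at 50.5, 46.1 and 112 CPM in Sham 1, 2 and 3 and at 146, 157 and 105 CPM in CKD 1, 2 and 3. Abcc2, which shares that membrane, stood at 46.3, 43.5 and 125 CPM in Sham and at 65.1, 70.1 and 61.2 CPM in CKD. Both genes had their highest Sham value in Sham 3, and neither passed (log2 changes 0.97 ± 0.37 and -0.13 ± 0.41, edgeR adjusted p = 0.170 and 0.879). Without Sham 3 the values were 1.43 and 0.48. The Abcc4 to Abcc2 ratio of counts was 1.09, 1.06 and 0.894 in Sham and 2.25, 2.24 and 1.72 in CKD, with no overlap.

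Abcc6, the pump whose loss causes ectopic calcification, stood at 36.4, 60.6 and 32.8 CPM in Sham 1, 2 and 3 and at 13.7, 14.5 and 20.6 CPM in CKD 1, 2 and 3. The groups did not overlap, and the log2 change of -1.41 ± 0.31 was just outside the threshold (edgeR adjusted p = 0.0511). It ran from -1.64 to -1.12 when single libraries were left out. In the table its gene body overlaps that of Kcnj14 on the same strand.

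The remaining pump genes of the family did not pass the test. Abcc1 stood at 33.3, 38.8 and 34.8 CPM in Sham and 43.9, 32.6 and 32.6 CPM in CKD (log2 change 0.03 ± 0.21, edgeR adjusted p = 0.945; -0.02 with RLE size factors). Abcc3 stood at 14.1, 13.8 and 12.0 CPM in Sham and 18.6, 14.6 and 16.9 CPM in CKD (log2 change 0.33 ± 0.22, edgeR adjusted p = 0.408), with all CKD libraries just above Sham. Abcc10 had a log2 change of 0.70 ± 0.27 and Abcc5 one of 0.03 ± 0.29 (edgeR adjusted p = 0.176 and 0.961).

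The channel subunit genes stood apart from each other. Abcc8, the sulfonylurea receptor of insulin-secreting cells, stood at 12.4, 6.43 and 1.41 CPM in Sham 1, 2 and 3 and at 0.145, 0.795 and 1.95 CPM in CKD 1, 2 and 3, overlapping through Sham 3 and CKD 3 (log2 change -2.81 ± 1.0, edgeR adjusted p = 0.144). Abcc9, its counterpart in vascular muscle and pericytes, stood at 30.3, 2.24 and 27.0 CPM in Sham and at 45.2, 39.5 and 37.1 CPM in CKD. Sham 2 was far below the rest, and the log2 change of 1.03 ± 0.74 was 0.46 without it (edgeR adjusted p = 0.435 with all libraries). The summed level of 6 fibroblast and mural cell markers was also lowest in Sham 2. It was 395, 64.0 and 208 CPM in Sham 1, 2 and 3 and 999.8, 932 and 645 CPM in CKD 1, 2 and 3. The drop in Sham 2 was uneven between these markers. Pdgfrb stood at 59.4, 38.7 and 56.7 CPM in Sham 1, 2 and 3, and Dcn at 119, 3.63 and 59.9 CPM. The part of these cells in the Abcc9 values was not tested.

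Added up per length, the uptake genes came to 3332, 1129 and 2087 CPM per kilobase in Sham 1, 2 and 3, and the CKD libraries 1, 2 and 3 had 808, 834 and 1313. The efflux genes came to 348, 115 and 272 in Sham and to 177, 172 and 195 in CKD. Both sums overlapped between groups through Sham 2, the library with the lowest summed proximal tubule markers. Within the uptake sum Slc22a6 took 7.65%, 17.3% and 27.4% in Sham and 24.4% to 27.1% in CKD, and Slc22a12 took 10.8%, 20.4% and 11.2% in Sham and 3.83% to 7.62% in CKD. The share of Slc22a12 was thus lower in every CKD library.

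The 13 carriers that were not tested had at most 18 counts in any library. Slc22a14, Slco6b1, Slco6c1 and Slco6d1 had none in all 6 libraries, where a count of 0 allows up to 3 counts, or 0.145 to 0.211 CPM depending on the library. Slco1b2, the liver uptake carrier, had 7, 3 and 3 counts in Sham 1, 2 and 3 and 0, 0 and 1 in CKD. Slc22a13l1, Slc22a16, Slc22a20, Slco1c1, Slco5a1 and Abcc12 were likewise at the edge of detection.

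Other transporters of organic ions and drugs, and regulators of the carriers, were listed apart from the members. Of 20 tested partner transporters 1 rose and 1 fell, with a median log2 change of -0.35. Of all tested genes 2.67% were called higher and 1.15% lower, with a median of -0.01. Slc10a2, the sodium-driven bile acid reabsorber, rose from 3.33, 1.47 and 3.59 CPM in Sham to 16.6, 12.7 and 10.2 CPM in CKD (log2 change 2.23 ± 0.41, edgeR adjusted p = 0.0399). Slc17a3, a urine-side organic anion and urate exporter, fell from 214, 221 and 225 CPM to 81.8, 78.4 and 119 CPM (log2 change -1.24 ± 0.24, edgeR adjusted p = 0.0415). Its Sham libraries were nearly alike, unlike those of most uptake carriers. With library totals alone its adjusted p was 0.0539 in edgeR.

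Of 17 tested scaffolds and regulators 1 rose and 1 fell, with a median of 0.10, against 2.67% of all tested genes higher and 1.15% lower. Ahr, the receptor for aryl hydrocarbons and indole metabolites, rose from 14.2, 13.9 and 15.4 CPM in Sham to 32.0, 29.6 and 28.1 CPM in CKD (log2 change 1.04 ± 0.20, edgeR adjusted p = 0.0399). Cebpb, a transcription factor of the C/EBP family, fell from 285, 263 and 286 CPM to 56.2, 69.9 and 46.2 CPM (log2 change -2.27 ± 0.24, edgeR adjusted p = 0.0278). These genes were tight in both groups. The nuclear factor Hnf4a, which maintains proximal tubule transporter expression, and the scaffold Pdzk1, which anchors carriers in the brush border, had log2 changes of 0.35 and -0.21 (edgeR adjusted p = 0.641 and 0.818), named here after their values were seen. All 4 calls were lost in edgeR without Sham 2, Sham 3, CKD 1 or CKD 2, with adjusted p between 0.0552 and 0.201. In limma-voom Cebpb passed, and Slc10a2, Slc17a3 and Ahr did not (adjusted p = 0.0516, 0.0504 and 0.0524).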

How the data were processed

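Libraries were made with a VAHTS kit from TRIzol-extracted total RNA, per the labels' protocols. The authors deposited raw counts per gene, 1 column per library, with their own gene lengths and coordinates. The submitters' processing notes name fastp 0.20.1, HISAT2 2.1.0, HTSeq 0.11.2 and Rnor_6.0, with no role or order. The sources used here do not give the strand setting or how reads in overlapping genes were assigned. In the deposited coordinates the gene bodies of 14 carriers overlap another gene and those of 7 overlap another carrier, on the same strand.

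The 53 carriers and all lists were chosen with earlier results of these data known. The filterByExpr rule of edgeR, at a minimum count of 10 and a minimum total of 15, kept 15371 genes. A quasi-likelihood model with group alone, TMM factors and robust empirical Bayes was fitted to all of them (edgeR 4.0.16, limma 3.58.1, R 4.3.3), with Benjamini-Hochberg adjustment over all genes and a threshold of 0.05. CPM are counts scaled to a common TMM-adjusted library size, and levels between genes are compared as CPM per kilobase of deposited gene length. Libraries of a group were not copies of each other, as chi-square divided by its degrees of freedom was 30.9 to 330.

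Named carriers were those that passed, the 2 with the smallest p and the 2 most abundant per length in each family, and a fixed set of known drug carriers; of the pathway lists those that passed and the 2 with the smallest p. Some genes of these lists are counted but not reported here by name. Other names were chosen after their values were seen. Of the pathway list, Slc9a3r1 and Slc9a3r2 were matched as Nherf1 and Nherf2 through RefSeq synonyms, and Slc17a1 is not analysed here. On simulated data for CKD against Sham with 15371 genes the model found 3% of the genes given a 2-fold change and 54% of those given a 4-fold change (100 each), with 4 false calls. Alternatives were RLE factors, library totals, other filters, DESeq2 1.42.0, limma-voom, a fit that was not robust, a replicate block and each library left out; removal of mitochondrial genes was added after the data were seen.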

Additional observations from a re-analysis of the deposited data

How the results depend on the processing

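The count of carriers called lower was 2 in the reported fit, 8 in DESeq2, 4 without robust empirical Bayes, 1 in limma-voom, 0 with a replicate block, and 0 to 3 when single libraries were left out. The 0 was found without Sham 2, Sham 3, CKD 1 or CKD 2, where 0 to 7 of all genes were called; 10 to 18 carriers (24.4% to 45%) and 14.6% to 27% of all genes had an unadjusted p under 0.05. Of all genes, DESeq2 called 4.99% lower, the fit without robust empirical Bayes 1.26% and limma-voom 0.488%. The share of all genes called lower was 5.8% without Sham 1 and 0.462% without CKD 3. The count called higher was 0 in the reported fit, 4 with library totals alone, 2 in DESeq2 and 0 to 1 when single libraries were left out (1 without Sham 1, Abcb1b). Of all genes 13.3% were called higher with library totals alone, 6.22% in DESeq2 and 4.96% without Sham 1, against 2.67% in the reported fit. With library totals alone the efflux median was 0.46. The uptake median ran from -0.79 to -0.35 and the efflux median from -0.12 to 0.15 over the fits that left out a library.

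Correlations of same-numbered deviations were -0.21, 0.00 and -0.16, and those of differently numbered ones ran from -0.092 to 0.196. With so few libraries they cannot exclude a pairing by replicate number. The replicate block left 10 genes called in all in place of 587 and 0 carriers. Under it Slco1a1 and Slc22a22 had adjusted p of 0.102 and 0.0873 in edgeR, and Cebpb, Slc10a2, Slc17a3 and Ahr 0.0528 to 0.112. Fold changes near 0 turned sign: Abcc1 was -0.0228 with RLE factors, -0.00294 with no filter, -0.0128 in DESeq2 and -0.0247 without mitochondrial genes; Slc22a8 was -0.0258, -0.00386, -0.0192 and -0.0236 in these settings; Abcc2 was 0.27 with library totals, 0.0498 in limma-voom and 0.0602 with the replicate block; Slco2a1 was 0.0276 with library totals. With single libraries left out, the ranges were -0.12 to 0.11 for Abcc1, -0.42 to 1.05 for Slc22a8, -0.42 to 0.48 for Abcc2, -3.91 to 0.49 for Slc22a7, -0.98 to 0.0129 for Slc47a1, -0.97 to 0.10 for Slc22a5 and -0.76 to 0.0847 for Slc22a6. The cause was not tested. Of the 40 tested carriers 27 kept their sign in all 6 of these fits. Low counts limit what can be said of the 13 untested carriers.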
